A study of Mus musculus with 6 samples.

Results

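Neurofilament and neuronal intermediate filament genes were examined in RNA-seq of mouse cortical neurons lacking FMRP. The genes are Nefl, Nefm, Nefh, Ina and Prph, chosen by name from the table of counts. All 5 members were found among its 55367 gene names, and all 5 had enough counts to be tested with 16976 genes in total. The cells came from the cerebral cortex of C57BL/6J mouse pups at postnatal day 1 (P1) and were kept in culture for 2 days. There were 3 wild-type (WT) libraries and 3 libraries from Fmr1-knockout (Fmr1-KO) mice, which lack FMRP, the RNA-binding protein missing in fragile X syndrome. No library received a treatment. The study describes the triplicate samples as independently derived. The labels name no litter, number of pups, sex or preparation batch. P values therefore measure the spread between these libraries, which may be technical, and no comparison within a batch was made.

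Neurofilaments are the intermediate filaments of neurons, and they fill the axon and set its calibre. The light (Nefl), medium (Nefm) and heavy (Nefh) subunits co-assemble with alpha-internexin (Ina) in the central nervous system, and with peripherin (Prph) chiefly in peripheral neurons. During brain development alpha-internexin mRNA appears before the neurofilament triplet is abundant, and the heavy subunit comes last. Dividing neural progenitors instead use nestin and vimentin, and astrocytes use GFAP.

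The 5 members lie at 4 loci in GRCm38, with coordinates taken from GENCODE M21. Nefl is on the plus strand of chromosome 14 from 68083863 to 68089095 and Nefm on the minus strand of the same chromosome from 68082590 to 68124846. Nefh is on chromosome 11 from 4938754 to 4948064, Ina on chromosome 19 from 47014698 to 47025327, and Prph on chromosome 15 from 99055174 to 99058978. Nefl and the shorter Nefm transcript end toward each other across 30.2 kb that hold 1 other annotated gene. The longer annotated Nefm transcript runs on through Nefl, so that its exons cover 1108 of the 3380 exon bases of Nefl on the opposite strand. The study counted reads by strand, which assigns reads in this overlap by their direction.

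The members encode related proteins, and a conserved stretch of their coding sequence is shown. It was located by a set pattern of residues, and stretches were not ranked by conservation. This stretch of 39 bases encodes the end of the central rod, the coiled-coil part through which intermediate filament proteins pair. Capitals mark the 27 bases that are the same in all 5 members. Of its 13 codons, 12 encode the same residue in every member.
Nefl: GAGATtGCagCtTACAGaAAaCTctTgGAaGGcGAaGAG
Nefm: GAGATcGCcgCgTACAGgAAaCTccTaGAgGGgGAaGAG
Nefh: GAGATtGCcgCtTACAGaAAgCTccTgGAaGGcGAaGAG
Ina: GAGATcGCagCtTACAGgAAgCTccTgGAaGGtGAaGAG
Prph: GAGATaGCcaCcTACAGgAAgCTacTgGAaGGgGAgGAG

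In GRCm38 the Nefl stretch lies at chr14:68086082-68086098 and chr14:68086487-68086508 on the plus strand. That of Nefm lies at chr14:68122821-68122837 and chr14:68121363-68121384 on the minus strand, and that of Nefh at chr11:4943851-4943867 and chr11:4941394-4941415 on the minus strand. The Ina stretch lies at chr19:47021941-47021957 and chr19:47023335-47023356 on the plus strand, and that of Prph is within a single exon at chr15:99057435-99057473 on the plus strand. In Nefl, Nefm, Nefh and Ina an intron falls after base 17 of the stretch, and in Prph no intron interrupts it. Identity over all aligned residues of the whole proteins, rod included, ran from 39.2% for Nefh and Prph to 50.7% for Nefl and Ina, and was 47.9% for Nefl and Nefm. The longest run of identical bases between any pair of transcripts was 35, for Nefm and Prph.

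The tail of the heavy subunit is the part that is phosphorylated most heavily in mature axons, on lysine-serine-proline (KSP) triplets. The Nefh coding sequence encodes 51 such triplets, that of Nefm 4, and those of Nefl, Ina and Prph 0. A window of 96 bases from Nefh with 5 of them is shown because it distinguishes the heavy subunit from the other members, with the codons of each KSP triplet in capitals (GRCm38, chr11:4940974-4941069, minus strand).
Nefh tail: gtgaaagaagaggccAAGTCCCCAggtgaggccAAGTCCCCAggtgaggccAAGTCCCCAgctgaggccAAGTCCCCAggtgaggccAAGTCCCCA

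Levels were compared as CPM (counts scaled to a common library size) scaled by edgeR's TMM method. Nefl and Nefm fell steeply in Fmr1-KO relative to WT, Ina fell slightly, and Nefh and Prph, which were near 2 CPM or less, did not pass the threshold of an adjusted P under 0.05. All tests of single genes are edgeR's quasi-likelihood test, adjusted over all tested genes by the Benjamini-Hochberg method. By this rule 3 of the 5 members were called lower and 0 were called higher. At an unadjusted P under 0.05, and under DESeq2, 0 members were higher as well. The background for these counts is that 42.6% of all tested genes were called, 21.9% as lower and 20.7% as higher, so a call alone is common in these data. In bulk RNA, fewer cells of a type and less RNA per cell cannot be told apart.

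Nefl, the light subunit, had 1036, 1031 and 1066 counts in WT libraries 1, 2 and 3 against 266, 252 and 294 in Fmr1-KO. In CPM these were 29.8, 31.2 and 31.9 in WT and 8.18, 8.23 and 8.45 in Fmr1-KO. The Fmr1-KO libraries lay close together and far below every WT library. The level of Nefl was 31.0 ± 1.08 CPM in WT and 8.29 ± 0.143 CPM in Fmr1-KO (SD, n = 3 per genotype), which is 26.8% of WT. The log2 fold-change was -1.90 (SE 0.06, 95% interval -2.03 to -1.77, adjusted P 2.10e-15 by edgeR). Among the 2822 genes that were called lower and averaged 10 CPM or more, the decrease of Nefl ranked 13, and 0.336% of all tested genes had a log2 fold-change as low.

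Nefm, the medium subunit, whose long tail reaches out from the filament, had 1247, 1121 and 1125 counts in WT and 439, 439 and 445 in Fmr1-KO. Its levels were 35.9, 33.9 and 33.7 CPM in the WT libraries and 13.5, 14.3 and 12.8 CPM in the Fmr1-KO libraries. Again the genotypes were far apart. The mean went from 34.5 ± 1.198 to 13.5 ± 0.776 CPM (SD, n = 3 per genotype), or 39.3% of WT. The log2 fold-change was -1.35 (SE 0.06, 95% interval -1.47 to -1.23, adjusted P 1.72e-13 by edgeR). It ranked 34 among the same called genes, and 0.925% of tested genes fell as far.

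Ina, which encodes alpha-internexin, was the member with the highest level and the smallest called decrease. It had 5102, 5234 and 4866 counts in WT and 3928, 3432 and 4295 in Fmr1-KO, or 146.8, 158.3 and 145.8 CPM against 120.8, 112.1 and 123.4 CPM. Every Fmr1-KO library lay below every WT library, but by much less than for Nefl or Nefm. The level was 150.3 ± 6.95 CPM in WT and 118.8 ± 5.93 CPM in Fmr1-KO (SD, n = 3 per genotype), which is 79.0% of WT. The log2 fold-change was -0.34 (SE 0.04, 95% interval -0.42 to -0.26, adjusted P 4.73e-07 by edgeR). In a test that requires more than a 1.2-fold change the call of Ina was lost (adjusted P 0.0672 by edgeR), while those of Nefl and Nefm were not.

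Nefh, the heavy subunit, had 58, 76 and 63 counts in WT and 56, 51 and 60 in Fmr1-KO. These are 1.67, 2.30 and 1.89 CPM in WT and 1.72, 1.67 and 1.72 CPM in Fmr1-KO, and the genotypes overlapped. The log2 fold-change of Nefh was -0.19 (SE 0.17, 95% interval -0.54 to 0.16, adjusted P 0.381 by edgeR), so a decrease as large as that of Nefm lies outside the interval. Counting error alone is 12.3% of the mean WT count. Without WT replicate 2, the highest library, it was -0.06 (edgeR adjusted P 0.829).

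Prph, which encodes peripherin, had 62, 60 and 52 counts in WT and 44, 48 and 38 in Fmr1-KO. In CPM these were 1.78, 1.81 and 1.56 in WT and 1.35, 1.57 and 1.09 in Fmr1-KO. Fmr1-KO replicate 2 reached the lowest WT library, so that the genotypes overlapped. Its log2 fold-change was -0.37 (SE 0.18, 95% interval -0.75 to 0.01, adjusted P 0.112 by edgeR). Counting error alone is 13.1% of the mean count of Prph in WT and 15.2% in Fmr1-KO. The intervals of Prph and Nefh both include the decrease seen for Ina and no change. Leaving out replicate 3 of Fmr1-KO gave -0.24 (edgeR adjusted P 0.378), and leaving out replicate 2 gave -0.50 (edgeR adjusted P 0.0620). Non-overlap in the direction of a decrease was found for 3 of the 5 members, against 26.3% of all tested genes.

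**Figure D1:**
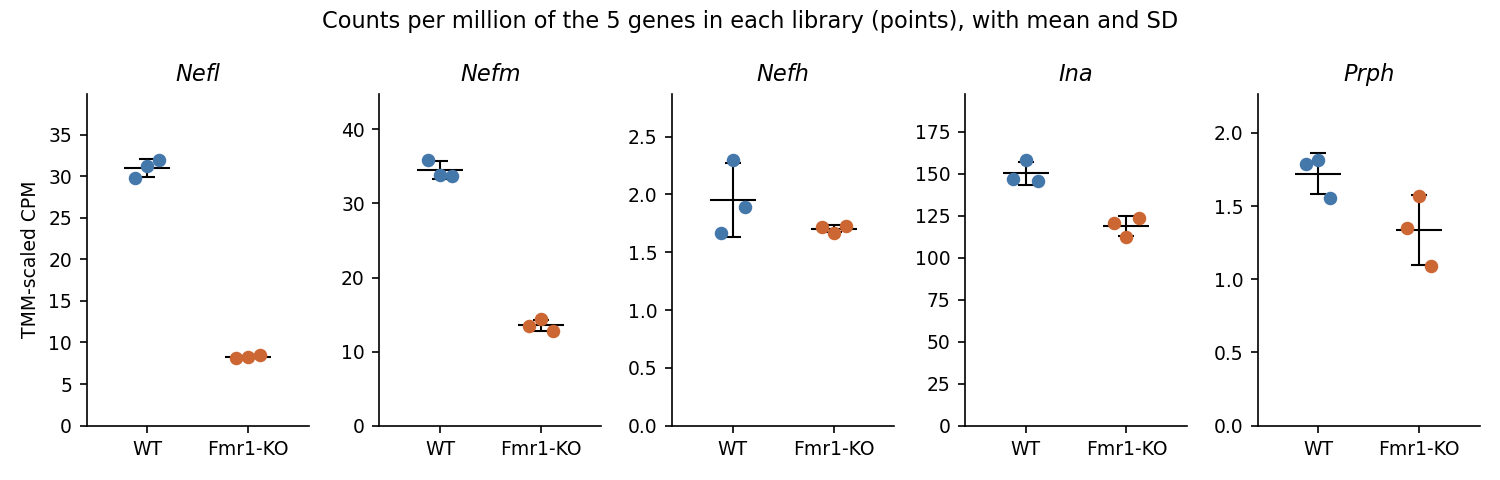
TMM-scaled CPM (y axis, from 0, on a different scale in each panel) of the 5 members in the 3 WT (blue) and 3 Fmr1-KO (orange) libraries, with black bars for the mean and SD. The genotypes are far apart for Nefl (31.0 against 8.29 CPM) and Nefm (34.5 against 13.5 CPM), nearer for Ina, and overlapping for Nefh and Prph.

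Levels of different genes were compared per kilobase of exon. Per kilobase of all annotated exons, the order in WT was Ina (46.4 ± 2.14), Nefl (9.17 ± 0.320), Nefm (5.97 ± 0.207), Prph (0.860 ± 0.0701) and Nefh (0.489 ± 0.0801 CPM per kb, SD, n = 3). In Fmr1-KO it was Ina (36.7 ± 1.83), Nefl (2.45 ± 0.0424), Nefm (2.34 ± 0.134), Prph (0.669 ± 0.119) and Nefh (0.427 ± 0.00830 CPM per kb, SD, n = 3), where Nefl and Nefm overlapped. The place of Nefm depends on its length, because the longer transcript that runs through Nefl raises its exon total to 5782 bases. With the length of the transcript that has the longest coding sequence (3334 bases for Nefm), Nefm stood at 10.3 ± 0.359 CPM per kb in WT and 4.06 ± 0.233 in Fmr1-KO (SD, n = 3), above Nefl in both genotypes. The other positions in the order were the same with both lengths.

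The unequal decreases changed the make-up of the set. Ina made up 73.5%, 74.7% and 73.1% of the summed level per kilobase of the 5 members in the WT libraries and 86.4%, 85.0% and 87.0% in the Fmr1-KO libraries. The share of Nefl was 14.3%, 14.1% and 15.4% in WT and 5.61%, 5.98% and 5.71% in Fmr1-KO. For both genes all libraries of a genotype lay on the same side of all libraries of the other. The Ina share differed by 12.4 percentage points, from 73.8% ± 0.803 to 86.1% ± 1.04, and the Nefl share by -8.82 points, from 14.6% ± 0.675 to 5.77% ± 0.192 (SD, n = 3 per genotype). The Nefm share went from 9.50% ± 0.553 to 5.52% ± 0.528 with the longer exon total, and from 15.4% ± 0.837 to 9.18% ± 0.842 with the single transcript (SD, n = 3 per genotype).

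The shares of Nefh (0.775% ± 0.101 in WT and 1.00% ± 0.0195 in Fmr1-KO) and Prph (1.37% ± 0.0922 and 1.58% ± 0.339, SD, n = 3 per genotype) were small. In an exact permutation test over the libraries (2-sided, n = 3 per genotype) the shares of Nefl, Nefm, Nefh and Ina each gave P = 0.1, the smallest that 3 against 3 libraries allow, and an adjusted P of 0.125 over the 5 shares, and that of Prph gave P = 0.5 (exact). The design therefore cannot bring a share below 0.05. The shares sum to 100% in each library, so a higher share of Ina or Nefh is no rise in its level.

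**Figure D2:**
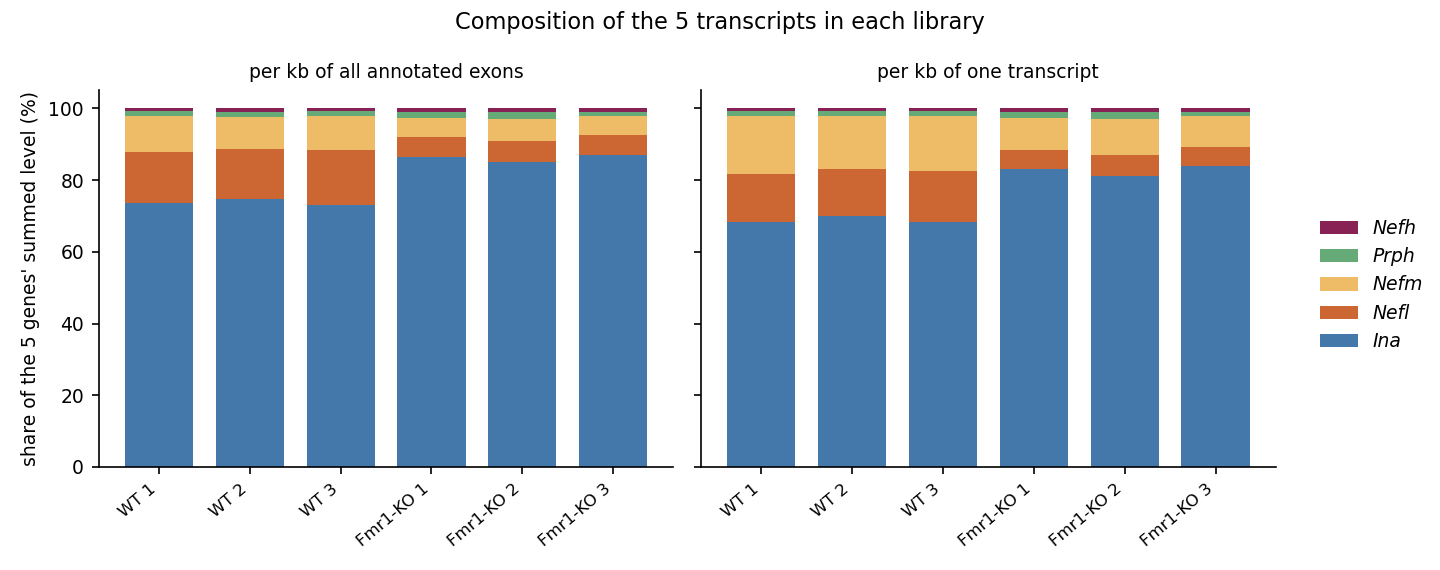
Share (y axis, percent) of each member in the summed level of the 5 members, 1 bar per library, with levels per kilobase of all annotated exons (left) or of the transcript with the longest coding sequence (right). The Ina share is higher and the Nefl and Nefm shares are lower in each Fmr1-KO library than in each WT library, with either length.

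Ratios between members, which do not depend on gene length for their change, were taken in each library for all 10 pairs. Per kilobase of all annotated exons, the log2 ratio of Nefl to Nefm was 0.51, 0.65 and 0.70 in WT and 0.05, -0.03 and 0.18 in Fmr1-KO. The sign of these values depends on the length used for Nefm, and the difference between genotypes does not. The ratio was lower in each Fmr1-KO library than in any WT library, so the decrease of Nefl was larger than that of Nefm. The difference between genotypes was -0.55 (95% interval from the pooled SD, -0.78 to -0.32). For Nefl to Ina the difference was -1.56 (-1.72 to -1.40) and for Nefm to Ina -1.01 (-1.30 to -0.72), again with no overlap between genotypes.

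Genotypes did not overlap in 7 of the 10 ratios, namely all those with Nefl or Nefm. Each of the 7 gave P = 0.1 by the exact permutation test (2-sided, n = 3 per genotype), the smallest possible, and an adjusted P of 0.143 over the 10 pairs. The 3 ratios among Nefh, Ina and Prph overlapped. Their differences were 0.16 for Nefh to Ina (95% interval -0.14 to 0.45), 0.19 for Nefh to Prph (-0.40 to 0.79) and 0.03 for Ina to Prph (-0.52 to 0.58). The intervals with Prph are wide, so these data do not show that Ina and Prph changed alike.

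The members were next set beside neuronal genes. Of 12 general neuron markers, 9 were called lower and 2 (Elavl4 and Dcx) higher, with a median log2 fold-change of -0.46 and a range from -0.97 to 0.41, beside a median of 0.01 over all tested genes. Both Nefl and Nefm lay below that range and the other members inside it. Some markers of neuron subtypes, described further below, fell further than Nefl. As low as Nefm were 1 of 9 excitatory markers (Slc17a7, -2.45) and 2 of 9 interneuron markers (Sst, -2.53, and Npy, -2.43). In the same 2 lists, 5 excitatory and 4 interneuron markers were called higher. The mean log2 CPM of the 12 markers was 8.29, 8.34 and 8.29 in WT and 7.91, 7.88 and 7.95 in Fmr1-KO. Relative to this mean in the same library, Nefl stood at -3.40, -3.38 and -3.30 on the log2 scale in WT and at -4.88, -4.84 and -4.87 in Fmr1-KO, a difference of -1.51.

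The same quantity for Nefm differed by -0.96 between genotypes, without overlap. For Ina it was -1.10, -1.03 and -1.10 in WT and -0.99, -1.07 and -1.01 in Fmr1-KO, so that the genotypes overlapped and differed by 0.05. Nefh and Prph also overlapped on this scale, with differences of 0.21 and 0.02. These values are a description and were not tested. On this scale Ina moved little, whereas Nefl and Nefm were still lower in every Fmr1-KO library.

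**Figure D3:**
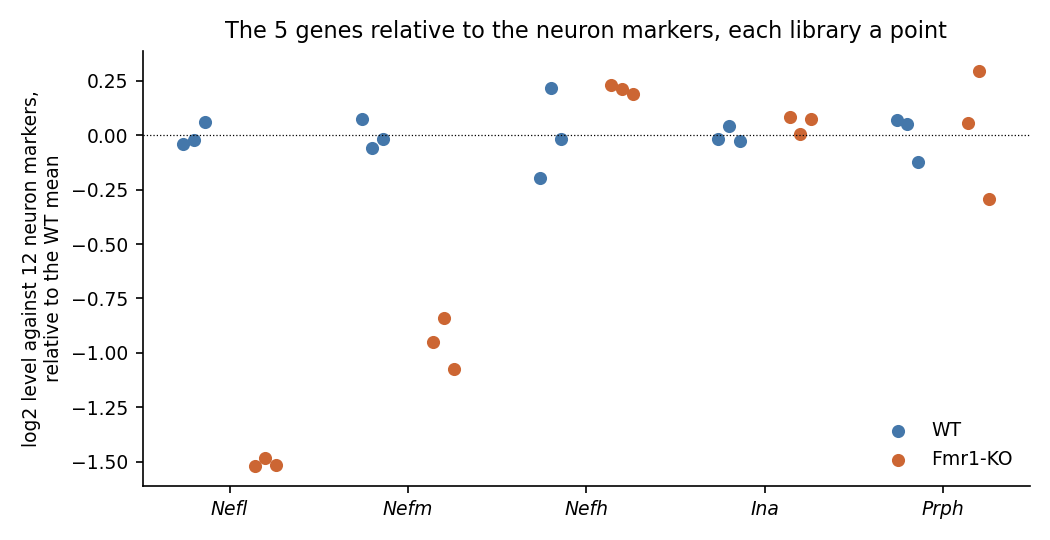
Log2 CPM of each member minus the mean log2 CPM of 12 neuron markers in the same library, shown relative to the WT mean of that member (y axis, log2). Fmr1-KO points (orange) lie 1.51 below WT (blue) for Nefl and 0.96 below for Nefm, and overlap WT for Nefh, Ina and Prph.

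Genes that carry, modify or replace neurofilaments were taken from lists by role, and their levels are means ± SD over 3 libraries per genotype. Beside the share of all genes called lower (21.9%) or higher (20.7%), 9 of 11 tested genes for linkers and transport were lower and 0 were higher by edgeR (0 higher at an unadjusted P under 0.05, and 8 lower and 0 higher under DESeq2). The median log2 fold-change of this list was -0.24. Kif5a, the neuronal kinesin heavy chain that moves neurofilaments outward along axons, went from 292.0 ± 3.26 to 223.8 ± 2.38 CPM (log2 fold-change -0.38, adjusted P 6.41e-10 by edgeR). Dync1i1, a neuronal intermediate chain of dynein, the inward motor, fell furthest in this list, from 65.4 ± 3.54 to 22.6 ± 2.60 CPM (log2 fold-change -1.53, adjusted P 4.42e-14 by edgeR). Dst and Plec, cytolinkers that tie intermediate filaments to other cytoskeletal fibres, both had log2 fold-changes of -0.35, and Myo5a, a myosin that binds neurofilaments, had -0.44. Kif5b and Macf1 did not pass, at 0.02 and 0.07. The call of Dynll1 (-0.14) was lost without WT replicate 2 (-0.07, edgeR adjusted P 0.180) and also without replicate 2 of Fmr1-KO (-0.12, adjusted P 0.0894), under DESeq2 and with library totals alone.

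Among 17 kinases, phosphatases and chaperones, 8 were lower and 0 were higher by edgeR (0 higher at an unadjusted P under 0.05, and 8 lower and 0 higher under DESeq2), with a median of -0.06. The activators of Cdk5, a kinase of the KSP triplets, differed from each other in value. Cdk5r2, which encodes p39, went from 64.5 ± 2.95 to 20.7 ± 2.01 CPM (log2 fold-change -1.63, adjusted P 4.84e-15 by edgeR). Cdk5r1, which encodes p35, was at 303.6 ± 3.38 and 307.3 ± 14.4 CPM (log2 fold-change 0.02, adjusted P 0.702). Cdk5 itself stood at -0.13 on the log2 scale (edgeR adjusted P 0.0230), a call lost without WT replicate 2 (-0.08, adjusted P 0.144) and also without replicate 2 of Fmr1-KO (-0.09, adjusted P 0.108), and with library totals alone (-0.10, adjusted P 0.0707). Mapk3 (-0.45), Mapk8 (-0.35) and the small heat shock protein gene Hspb8 (-0.51) were also called lower.

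Of 10 tested genes for turnover and mRNA binding, 2 were lower and 3 higher, with a median of 0.00. Over all tested genes the shares were 21.9% lower and 20.7% higher, so the counts of this list do not set it apart. Arhgef28, whose product binds Nefl mRNA, went from 25.6 ± 1.51 to 13.6 ± 1.18 CPM (log2 fold-change -0.91, adjusted P 6.52e-10 by edgeR). Trim2, a ubiquitin ligase of the light subunit, rose by 0.16 on the log2 scale. Tardbp, which encodes TDP-43, another protein that binds Nefl mRNA, had 0.09 (adjusted P 0.0300), a call lost when replicate 1 or 3 of WT, or replicate 1 or 2 of Fmr1-KO, was left out. Without WT replicate 3 it was 0.06 (edgeR adjusted P 0.213). Requiring more than a 1.2-fold change ended the calls of Trim2 and Tardbp, and not that of Arhgef28.

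Genes of the axon cytoskeleton and initial segment were lower in 13 of 15 cases and higher in 1, with a median log2 fold-change of -0.44. Tubb3, Map2, Stmn2, Gap43 and Dcx of this list also belong to the general neuron markers above, so the counts of these lists share genes. The largest decrease was that of Gap43, a growth cone protein (-0.97), followed by the axonal adhesion protein Cntn1 (-0.87) and the microtubule regulator Stmn2 (-0.65). The microtubule-associated proteins Map1a, Map1b and Mapt had -0.62, -0.57 and -0.44. Dcx, a marker of immature neurons, was the gene called higher (0.08, adjusted P 0.0312 by edgeR), and that call was lost when replicate 1 or 3 of WT, or replicate 3 of Fmr1-KO, was left out (0.06, edgeR adjusted P 0.168, in the last case). Of all 61 tested genes in these linked lists, 2 (Dync1i1 and Cdk5r2) had a log2 fold-change as low as that of Nefm.

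Other intermediate filament genes were listed too, among them 3 nuclear lamins, which neurons also use. Of these 8 genes 5 were higher and 2 lower, with a median of 0.19. Nes (nestin) rose from 244.8 ± 5.71 to 298.2 ± 8.55 CPM, and Vim (vimentin) from 1203 ± 3.66 to 1402 ± 34.1 CPM, log2 fold-changes of 0.28 and 0.22. Lmnb1, a nuclear lamin, rose by 0.39 on the log2 scale. Lmnb2 had 0.15, a call lost without WT replicate 1 (0.13, edgeR adjusted P 0.0871) and also without replicate 1 of Fmr1-KO (0.08, adjusted P 0.173). Gfap went from 2649 ± 67.0 to 2297 ± 158.2 CPM (log2 fold-change -0.21), and Synm, which encodes synemin, from 15.7 ± 0.947 to 8.20 ± 0.840 CPM (log2 fold-change -0.93). Nes and Vim are also counted below among the neural progenitor markers, and Gfap among the astrocyte markers. Des had 0.58, and its call was lost under DESeq2 (adjusted P 0.0790). When more than a 1.2-fold change was required, the calls of Nes, Vim, Gfap, Lmnb2 and Des were lost and those of Lmnb1 and Synm were not.

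**Figure D4:**
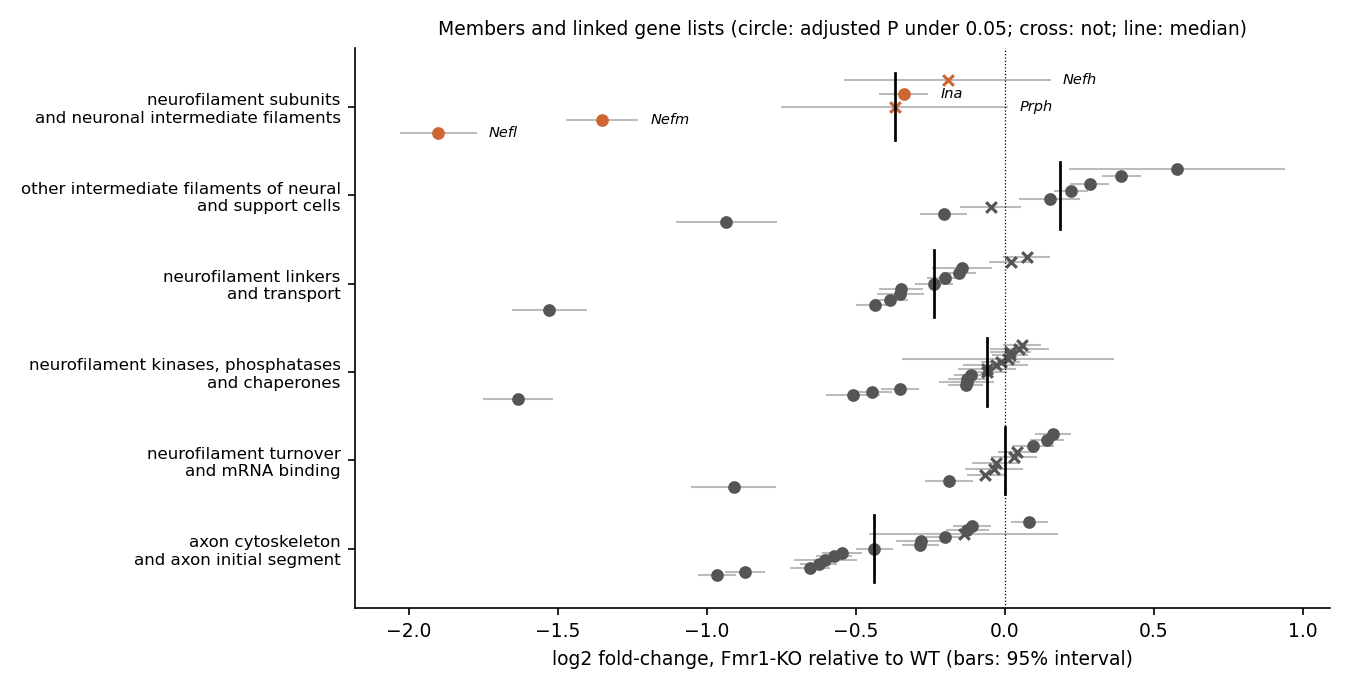
Log2 fold-change in Fmr1-KO relative to WT (x axis) of every tested gene in the member list (orange) and the 5 linked lists (grey), with 95% intervals as bars. Circles passed an adjusted P under 0.05 by edgeR, crosses did not, and vertical lines mark list medians, which run from -0.44 to 0.19 in the linked lists. Nefl lies furthest left, and Cdk5r2 and Dync1i1 of the linked lists lie further left than Nefm.

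The genes nearest to each abundant member in profile over the 6 libraries were found by the root mean square difference of centred log2 CPM, among the 10760 other genes that averaged 10 CPM or more. Mef2c, a neuronal transcription factor gene, was nearest to Nefl (difference 0.0447), at 446.7 ± 5.39 CPM in WT and 121.2 ± 4.89 CPM in Fmr1-KO. The potassium channel gene Kcnk9 was next (0.0891). Plcxd2 (0.0827) and the neuregulin gene Nrg3 (0.0851) were nearest to Nefm, and Dynll2 (0.0215) and Got1 (0.0223) to Ina. With 2 genotypes the measure depends largely on the size of the genotype difference, which was -1.88 for Mef2c, -1.38 for Nrg3 and -0.36 for Dynll2 on the log2 scale.

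Facts of the whole series bear on these values. Total counts ran from 30348556 to 35126207 per library. Fmr1 itself was at 113.4 ± 4.50 CPM in WT and 57.4 ± 3.67 CPM in Fmr1-KO (SD, n = 3 per genotype), lower in every Fmr1-KO library than in any WT library. Upf1, the central factor of nonsense-mediated decay, which the study examined, stood at 0.03 on the log2 scale (edgeR adjusted P 0.546). This is its mRNA level. The study reported raised decay activity in Fmr1-KO from other measures, among them phosphorylated UPF1 protein and target mRNA levels. The cultures held neuron markers at high levels (summed CPM of the 12 from 5872 to 6011 in WT and 4950 to 5185 in Fmr1-KO), but also markers of glia and dividing cells, although the study depleted astrocytes and myelin before plating.

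Several marker lists of other cells also moved with genotype. Their counts stand beside 21.9% of all tested genes called lower and 20.7% called higher. All 10 markers of proliferating cells were higher in Fmr1-KO (summed CPM 568.9 to 607.0 in WT and 968.5 to 1022 in Fmr1-KO), as were all 5 tested of 6 markers of intermediate progenitors (85.7 to 105.5 and 188.7 to 219.7) and 4 of 8 of neural progenitors (2471 to 2490 and 2739 to 2801). All 8 oligodendrocyte lineage markers were lower (1884 to 2046 and 1075 to 1159), as were 7 of 8 microglial markers (173.4 to 191.1 and 100.3 to 112.5). Astrocyte markers went both ways, lower in 4 and higher in 2 of 8 cases (5090 to 5211 and 4488 to 4861), with a median log2 fold-change of -0.05. Endothelial and mural markers were lower in 2 (Cdh5 and Rgs5) and higher in 4 of 7 tested (247.3 to 271.7 and 410.8 to 429.9). The largest part of that sum was Acta2, with means of 176.1 CPM in WT and 322.0 CPM in Fmr1-KO. None of these lists had a marker at 0 in all libraries, and their part in the decrease of Nefl, Nefm and Ina was not tested.

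Excitatory neuron markers were lower in 4 and higher in 5 of 9 cases (summed CPM 669.5 to 677.4 in WT and 641.7 to 673.9 in Fmr1-KO), with Slc17a7, the vesicular glutamate transporter of mature cortical neurons, at -2.45 on the log2 scale and Fezf2, a transcription factor of deep-layer neurons, at 0.29. Interneuron markers were lower in 5 and higher in 4 of 9 cases (754.5 to 786.6 and 787.6 to 866.2), with the neuropeptide genes Sst at -2.53 and Npy at -2.43, and the interneuron transcription factor genes Dlx2 at 0.59 and Dlx1 at 0.46. Markers of peripheral, cholinergic and brainstem neurons, which bear on Prph, summed to 12.3 to 12.9 CPM in WT and 14.5 to 16.3 CPM in Fmr1-KO over 12 genes. Of the 5 that could be tested, 0 were lower and 2 were higher by edgeR (1 was lower at an unadjusted P under 0.05, and 0 were lower and 1 higher under DESeq2). Isl1, a transcription factor gene of motor and sensory neurons, had 212, 206 and 189 counts in WT and 284, 292 and 289 in Fmr1-KO (log2 fold-change 0.56, adjusted P 2.94e-05 by edgeR). Avil stood at 0.51 (edgeR adjusted P 0.0290), with 47, 61 and 51 counts in WT and 75, 83 and 61 in Fmr1-KO, and the genotypes overlapped in CPM. Mnx1 was at 0 counts in every library, and Chat, the cholinergic marker, had at most 5 counts.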

How the data were processed

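RNA was sequenced from 3 WT and 3 Fmr1-KO cultures of mouse cortical neurons, grouped by the titles in the labels. The deposited values are raw counts, which the authors did not normalize. Reads were trimmed with FastP, mapped to GRCm38 with STAR and counted over exons in reverse-stranded mode with featureCounts, by gene name. The submitters' processing notes name STAR 2.7.6a and Subread 2.0.1.

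Counts were filtered with filterByExpr, scaled by TMM and fitted with edgeR 4.0.16 (R 4.3.3), genotype being the only term. A difference was called at a Benjamini-Hochberg adjusted P under 0.05 over all genes, and SE was the log2 fold-change divided by the root of F. The script was tested on simulated data. The study used DESeq2, run here (1.42.0) as an alternative. Shares and ratios used exact permutation tests (scipy 1.17.1). Exon lengths, coordinates and transcript sequences came from GENCODE M21, an earlier release than those the authors name. Residue identity was scored after global alignment (Biopython 1.88, BLOSUM62).

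Other alternatives were RLE, upper-quartile and library-total scaling, omitting the filter, raising it to means of at least 10 counts and 5 CPM (the stricter filter), a block for replicate number, a minimum fold change of 1.2, leaving out each library, other gene lengths and 0.5 added counts. The length of the transcript with the longest coding sequence was chosen as an alternative after seeing the data. Named genes were the members, Fmr1, Upf1, list genes and, for members of at least 10 CPM, the 2 nearest profiles. The members and lists were chosen with earlier results of these data known. Of the 11 genes listed for turnover and mRNA binding, 10 were found in the table, and some of them are not reported here. The sequence tables used here hold no protein sequences and no promoter of Nefl, Nefm or Nefh.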

Additional observations from a re-analysis of the deposited data

How the results depend on the processing

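Nefl and Nefm were called lower in all fits, at log2 fold-changes of -1.93 to -1.87 and -1.39 to -1.31. Ina kept its direction (-0.37 to -0.30) and lost its call only with a minimum fold change of 1.2 (-0.34, adjusted P 0.0672 by edgeR). Nefh (-0.30 to -0.06) and Prph (-0.50 to -0.24) passed under no alternative, and neither met the stricter filter, so the median of the members that did was -1.35. Their counts were 38 to 76 per library, and no detection limit was computed for them. Under a minimum fold change of 1.2, as a stricter test calls fewer genes, 1340 genes were lower and 883 higher; called lower and higher were 1 and 1 of the other intermediate filament genes, 1 and 0 of the turnover and mRNA-binding genes and 8 and 0 of the axon genes, and lower were 5 linkers and 4 kinases, phosphatases and chaperones.

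Library totals alone gave a median of -0.21 for linkers and transport, with 1 gene higher there and 1 among kinases, phosphatases and chaperones; no filter also gave 1 higher linker gene, and the stricter filter a median of -0.49 for axon genes. The cause was not tested. The turnover median, near 0, changed sign under DESeq2 (-0.00169) and with no filter (-0.000485).

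When each library was left out in turn, the turnover median ran from -0.0248 to 0.0174, that of members from -0.495 to -0.331, of linkers from -0.257 to -0.216, of kinases, phosphatases and chaperones from -0.108 to -0.0358, and axon genes called higher from 0 to 1. The Ina to Prph ratio ran from -0.133 to 0.198. Its sign changed without WT replicate 1 (-0.0106) and without Fmr1-KO replicate 3, and these were the 2 reversals among 135 recomputed shares and ratios. Over 60 other genes that were called in the reported fit (uncalled genes were not followed, so gained calls are not counted), 797 of 839 values kept their call and direction, 42 lost the call and 0 reversed. Most markers of other cells and of neuron subtypes were not followed either, among them Isl1, Avil, Dlx1, Dlx2 and Fezf2.

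Same-numbered libraries were not paired by the labels, and the correlations of their deviations from genotype means were -0.0289, 0.0323 and -0.0147. Adding the replicate block to the fit called 3694 genes lower and 3488 higher. Nefl, Nefm and Ina had log2 fold-changes of -1.90, -1.35 and -0.34, and no member changed its call.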
